A study of Homo sapiens with 8 samples.

Results

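The genes described here are 9 enzymes and transporters of glycolysis and its lactate branch and 1 gene that marks hypoxia: SLC2A1, HK2, PFKP, ALDOA, GAPDH, PGK1, ENO1, PKM, LDHA and CA9. They were taken by gene name from the deposited table of mRNA counts, where the 10 names hold 11 of 16547 rows because ALDOA is listed under 2 gene identifiers. In the deposited lists of m1A peaks they hold 15 peaks. Of the 11 rows, 10 had enough counts to be tested, and CA9 did not. RNA came from 5637, an established human bladder cancer line, as control cells labelled 5637NC with genotype WT and as cells labelled 5637SH with stable knockdown of TRMT61A. Each group had 2 samples. From every sample the total RNA (input) and the RNA pulled down for N1-methyladenosine (m1A) were sequenced apart. The labels give neither the knockdown sequence, nor whether the knockdown cells are 1 clone, nor whether the replicates were separate cultures. What the p-values weigh is thus the scatter of these 4 samples, and that scatter could be technical.

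Glycolysis splits glucose into pyruvate and yields ATP without oxygen, and many tumour cells run it fast and turn the pyruvate into lactate even when oxygen is present. When oxygen is low, hypoxia-inducible factors escape degradation, bind short DNA motifs that contain CGTG, and raise transcription of glucose transporters, glycolytic enzymes and CA9. TRMT61A is the catalytic subunit of an enzyme that, together with TRMT6, places m1A on tRNA and on some mRNAs, and m1A can block base pairing and change how an RNA is read or bound.

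Among these genes, an m1A peak at a start site was listed in every sample at SLC2A1 alone. The stretch just upstream of that start, on the minus strand at chr1:42958869-42959118, is shown because the peaks cross it. RefSeq on GRCh38.p14 gives it as follows, 5′ to 3′, with capitals for the 115 bases that lie inside the peaks of all 4 samples.

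SLC2A1: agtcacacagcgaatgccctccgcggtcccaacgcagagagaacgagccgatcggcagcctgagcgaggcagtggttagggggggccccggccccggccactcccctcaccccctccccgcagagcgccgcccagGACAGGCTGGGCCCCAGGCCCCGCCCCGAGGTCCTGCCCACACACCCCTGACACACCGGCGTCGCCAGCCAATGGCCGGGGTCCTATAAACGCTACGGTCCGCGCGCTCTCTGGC

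The upstream stretches of 4 other genes are shown as examples that hold a core of the hypoxia response element. Windows of PFKP, ALDOA and GAPDH and another window of HK2 also hold ACGTG and are not shown. Capitals mark ACGTG or its reverse complement CACGT, and CACGTG holds both, overlapping. Positions are chr2:74833877-74834126 for HK2, chrX:78103998-78104247 for PGK1, chr11:18394313-18394562 for LDHA and chr9:35673678-35673927 for CA9, all on the plus strand of GRCh38.p14.

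HK2: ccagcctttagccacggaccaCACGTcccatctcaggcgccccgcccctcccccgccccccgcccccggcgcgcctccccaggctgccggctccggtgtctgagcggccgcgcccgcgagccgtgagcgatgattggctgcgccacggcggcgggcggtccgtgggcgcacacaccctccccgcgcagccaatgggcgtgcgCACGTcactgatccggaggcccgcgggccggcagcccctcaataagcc

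PGK1: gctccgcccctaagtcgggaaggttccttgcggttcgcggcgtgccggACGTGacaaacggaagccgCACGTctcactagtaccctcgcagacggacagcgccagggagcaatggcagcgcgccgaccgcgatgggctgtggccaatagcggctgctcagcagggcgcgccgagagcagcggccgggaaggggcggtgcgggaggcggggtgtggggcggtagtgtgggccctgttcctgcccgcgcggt

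LDHA: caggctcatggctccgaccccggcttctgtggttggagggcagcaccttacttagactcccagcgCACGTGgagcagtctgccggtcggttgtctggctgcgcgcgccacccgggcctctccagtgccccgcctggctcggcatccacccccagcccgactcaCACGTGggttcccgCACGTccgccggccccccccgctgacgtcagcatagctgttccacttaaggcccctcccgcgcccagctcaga

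CA9: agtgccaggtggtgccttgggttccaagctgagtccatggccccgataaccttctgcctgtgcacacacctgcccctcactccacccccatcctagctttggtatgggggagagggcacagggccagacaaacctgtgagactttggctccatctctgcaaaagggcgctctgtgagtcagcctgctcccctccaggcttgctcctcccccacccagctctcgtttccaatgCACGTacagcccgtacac

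All 10 names matched RefSeq promoter windows, 17 in all, each of 300 bases from 250 before to 50 after a start. ACGTG on either strand was present in 10 of the 17 windows (58.8%), against 21.4% of all 35116 RefSeq windows. By gene it was 7 of 10, for which no background was counted. A gene with several windows has more chances of a match, and some windows overlap, as at ALDOA. The other core, GCGTG, was present in 9 of the 17 windows (52.9%), against 36.5% of all windows. LDHA had 5 matches to ACGTG in the window shown, counting both strands, and CA9 had 1. The windows of SLC2A1, ENO1 and PKM held no ACGTG, which says only that these letters are not in those windows. Such matches are a description of sequence, and no factor's binding was measured.

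Input libraries held 30046283 to 42177927 mRNA counts, and the quasi-likelihood test of edgeR, adjusted by Benjamini-Hochberg, called 5 of 13362 tested genes (0.0374%) at an adjusted p under 0.05. TRMT61A itself stood at 19.8 and 14.7 CPM (counts per 1e6 counts) in control inputs 1 and 2, against 13.4 and 6.71 CPM in knockdown inputs 1 and 2. Its log2 fold change was −0.78 ± 0.29 (SE), and by edgeR the unadjusted p was 0.0278 and the adjusted p 1.00. Of 9 markers of basal urothelium and epithelium, all 9 were above 1 CPM, with summed levels of 2131 to 2188 CPM in control libraries against 2307 to 2433 CPM in knockdown. Luminal markers, led by KRT8 and KRT18, were above 1 CPM for 5 of 10. They summed to 1564 to 1916 CPM in control libraries against 1610 to 1741 CPM in knockdown. The uroplakins UPK1A, UPK1B, UPK2 and UPK3A were under 1 CPM in each library, and KRT20 was not listed. Immune markers, none of 6 above 1 CPM, summed to 0.709 to 1.11 CPM in control libraries against 0.624 to 1.496 CPM in knockdown. Endothelial markers summed to 1.92 to 2.62 and 1.496 to 2.39 CPM, and fibroblast markers, led by COL1A1, to 47.3 to 48.5 and 39.1 to 53.3 CPM.

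None of the 10 tested rows of the glycolysis genes passed the test, in either direction. edgeR and DESeq2 both called 0 of them, and DESeq2 called 24 of all tested genes (0.18%). SLC2A1 alone had an unadjusted edgeR p under 0.05, where 3.3% of all tested genes did. With the replicate number as a block that count of rows was 3, in a fit that called 15 of all genes. The share of all genes with such a p in that fit was not counted, so the 3.3% is no background for it. A fit with 1 library left out has 1 sample in a group, which is assumed to vary like the pair in the other group, and this holds for each such p-value given below. The log2 fold change of knockdown over control was negative in 9 of the 10 rows and lay between −0.38 and 0.30, with a median of −0.11. Over all genes tested, 50.2% were negative and the median was −0.000557. Both knockdown libraries were below both control libraries in 4 rows, where 14.7% of all tested genes showed that order, and above both in 1 row, against 15.6%. The levels below are CPM scaled by TMM-adjusted library sizes and are not divided by transcript length, so they compare libraries for a gene and not genes with each other. In bulk RNA, fewer cells that express a gene and less RNA per cell cannot be told apart.

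**Figure D1:**
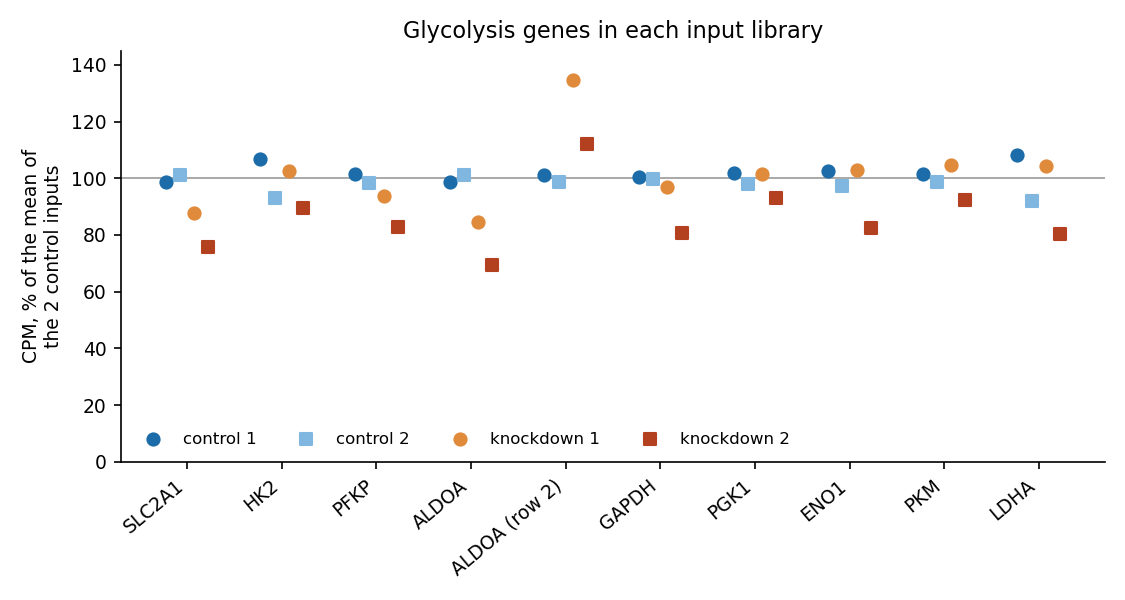
CPM of each tested row in the 4 input libraries, as a percentage of the mean of both control inputs (vertical axis from 0; blue, control; orange and red, knockdown; circles, replicate 1; squares, replicate 2). The square of knockdown 2 is the lowest point in 9 of 10 rows, and the second ALDOA row is the exception.

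SLC2A1 encodes GLUT1, the transporter that brings glucose into most cells (chr1:42925353-42958868, ENSG00000117394). It measured 76.4 and 78.2 CPM in control 1 and 2 and 67.9 and 58.6 CPM in knockdown 1 and 2. Both knockdown libraries lay below both control libraries, whose values were close to each other. The means were 77.3 ± 1.29 CPM and 63.3 ± 6.54 CPM (SD, n = 2 each). The log2 fold change was −0.29 ± 0.09 (SE), with an unadjusted edgeR p of 0.0121 and an adjusted p of 1.00, so the gene did not pass. Without knockdown 1 it was −0.40 with an adjusted p of 0.0866 by edgeR, and without knockdown 2 it was −0.19 with an adjusted p of 1.00.

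HK2, a hexokinase that phosphorylates glucose and sits on mitochondria (chr2:74834127-74893359, ENSG00000159399), measured 63.2 and 55.2 CPM in control libraries against 60.6 and 53.0 CPM in knockdown. The groups overlapped, and the control libraries differed from each other by more than the group means did. Its log2 fold change was −0.06 ± 0.10 (SE), with an unadjusted edgeR p of 0.592. The sign turned when control 1 was left out (0.04) or knockdown 2 was left out (0.04).

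PFKP is the platelet-type phosphofructokinase, an isoform of the enzyme that commits sugar to glycolysis (chr10:3067548-3136805, ENSG00000067057). It measured 113 and 110 CPM in control libraries against 105 and 92.4 CPM in knockdown, again with both knockdown libraries lower. Its log2 fold change was −0.18 ± 0.08 (SE), with an unadjusted edgeR p of 0.063 and an adjusted p of 1.00. It was −0.09 without knockdown 2 and −0.27 without knockdown 1.

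ALDOA, the aldolase that cleaves fructose bisphosphate, was split over 2 rows. ENSG00000149925 (chr16:30064279-30070420) had 100 and 146 counts in control and 112 and 91 in knockdown, or 3.37, 3.45, 2.89 and 2.37 CPM. The second row, ENSG00000285043, had 23, 32, 40 and 33 counts in the same order, or 0.776, 0.756, 1.03 and 0.858 CPM. The knockdown libraries were both lower in the first row, with a log2 fold change of −0.38 ± 0.28 (SE), and both higher in the second, with 0.30 ± 0.45. The unadjusted edgeR p was 0.209 for the first row and 0.523 for the second. Both rows carry the same Entrez gene, and the reference name table gives the second identifier no symbol. How reads that lie in both were counted is not given in the sources used here, so the level of ALDOA mRNA cannot be read from either row. Another 4 noncoding transcripts named ALDOA in the lncRNA table took 212 counts over the 4 libraries, 26.9% of the counts under that name in both tables together.

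GAPDH, the dehydrogenase that makes the first reducing equivalent of glycolysis and is often used as a reference gene, spans chr12:6534517-6538371 (ENSG00000111640). It measured 1028 and 1022 CPM in control libraries against 995 and 827 CPM in knockdown. Both knockdown libraries were lower, knockdown 1 by little and knockdown 2 by much more. On the log2 scale the change was −0.17 ± 0.09 (SE), with an unadjusted edgeR p of 0.0978 and an adjusted p of 1.00. It was −0.04 without knockdown 2, and −0.31 with an adjusted p of 0.0673 without knockdown 1.

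PGK1, the kinase that yields the first ATP of the payoff steps (chrX:78104248-78129295, ENSG00000102144), measured 551 and 531 CPM in control libraries against 549 and 503 CPM in knockdown. Knockdown 1 lay between the controls. On the log2 scale the change was −0.04 ± 0.07 (SE), with an unadjusted edgeR p of 0.595, and turned to 0.02 without knockdown 2. ENO1, the main enolase of most cells (chr1:8861000-8878686, ENSG00000074800), measured 1057 and 1001 CPM in control libraries against 1059 and 847 CPM in knockdown. Knockdown 1 was the highest of the 4 libraries and knockdown 2 the lowest. The log2 fold change was −0.11 ± 0.10 (SE), with an unadjusted edgeR p of 0.316, and turned to 0.04 without knockdown 2.

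PKM encodes both pyruvate kinase M isoforms, which make pyruvate and ATP (chr15:72199029-72231591, ENSG00000067225). It measured 1268 and 1233 CPM in control libraries against 1307 and 1155 CPM in knockdown, so the knockdown libraries lay on either side of the controls. Its log2 fold change was −0.02 ± 0.08 (SE), with an unadjusted edgeR p of 0.783, and turned to 0.06 without knockdown 2. Counts per gene do not separate the M1 and M2 isoforms, which use different exons.

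LDHA, the lactate dehydrogenase subunit that favours turning pyruvate into lactate (chr11:18394563-18408425, ENSG00000134333), measured 1112 and 945 CPM in control libraries against 1074 and 825 CPM in knockdown. In both groups replicate 1 was the higher, as for HK2, PFKP, GAPDH, PGK1, ENO1, PKM and the second ALDOA row. For SLC2A1 and the first ALDOA row, control 2 was above control 1. The LDHA groups overlapped. The log2 fold change was −0.11 ± 0.13 (SE), with an unadjusted edgeR p of 0.388. It turned to 0.01 without control 1 and to 0.06 without knockdown 2.

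CA9 encodes carbonic anhydrase IX, a surface enzyme widely used as a marker of hypoxia (chr9:35673928-35681159, ENSG00000107159). It had 1 and 1 counts in the control libraries and 7 and 3 in the knockdown libraries, against at least 30046283 mRNA counts in each. Each library thus held some CA9 reads, but the counts were too low for the gene to enter the main test. In the edgeR fit without a filter CA9 was tested and not called, with a log2 fold change of 2.08. At counts this low, neither absence nor a level can be read from a single library. Summed over libraries, 10 counts stood against 2, a ratio of 4.70 per total count with an exact 95% interval of 1.00 to 44.1 that covers counting error alone and not the spread between samples.

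**Figure D2:**
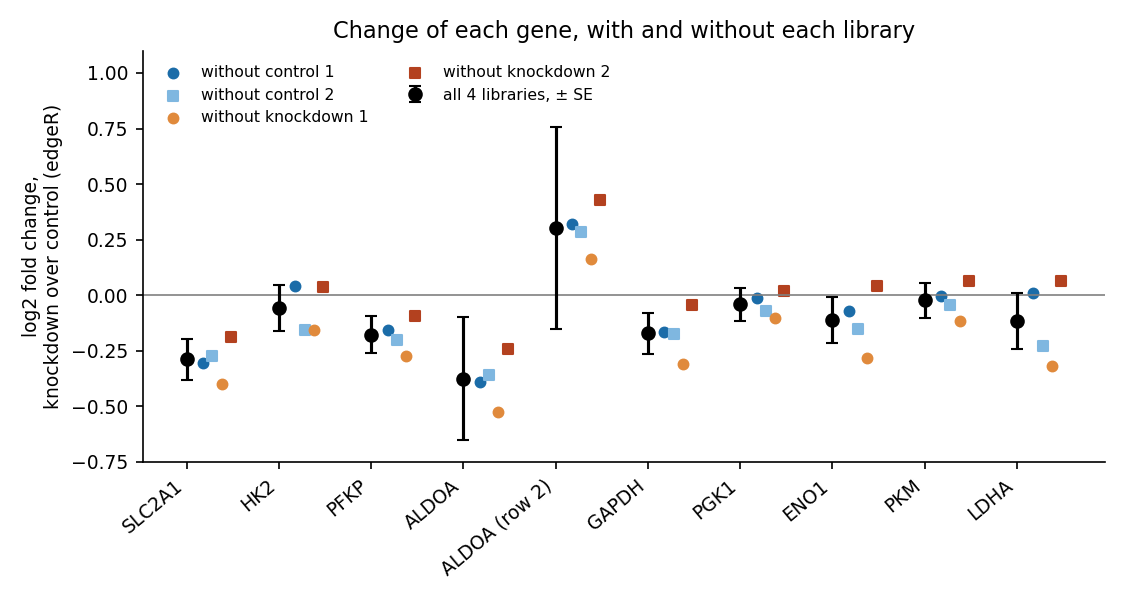
Log2 fold change of knockdown over control from edgeR for each tested row (black, all 4 libraries, bars ± SE) and with 1 library left out at a time (coloured points). Without knockdown 2 the values of HK2, PGK1, ENO1, PKM and LDHA lie above 0. SLC2A1, PFKP, GAPDH and the first ALDOA row stay below 0 in all 5 fits shown. SLC2A1 runs from −0.40 to −0.19 and the first ALDOA row from −0.53 to −0.24, while the second ALDOA row stays above 0.

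The second knockdown library was the lowest library in 9 of the 10 tested rows, where 30.4% of all tested genes had it lowest. Of the related lists described further on, it was lowest in 61.5% of the 13 tested genes for the fate of pyruvate and lactate transport. For side branches of glucose use that share was 61.1% of 18. It was 40% for relatives of the 10 genes and 40% for glycolytic steps that none of them covers. For regulators of flux it was 33.3%, for the oxygen-sensing machinery 30.8% and for other hypoxia-induced genes 28.6%. The 10 names together took 0.5205% and 0.4996% of all mRNA counts in control 1 and 2, 0.5193% in knockdown 1 and 0.4428% in knockdown 2. Knockdown 1 lay within the control range and knockdown 2 below it. Without knockdown 2, 4 of the 10 rows had a negative log2 fold change and the median was 0.03, and without knockdown 1, 9 were negative and the median was −0.28. In neither fit did any of the 10 rows pass, and the lowest adjusted p by edgeR without knockdown 1 was that of GAPDH. Knockdown 2 was also the library with the lowest TRMT61A level, 6.71 CPM, and a part of TRMT61A in the level of these genes was not tested.

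Transcripts of the same genes also appear in the deposited lncRNA table as noncoding isoforms. There were 34 under 9 of the 10 names, with none for CA9, and 21 of them were tested. None passed by edgeR or DESeq2 (background 0.0219% by edgeR), and none had an unadjusted p under 0.05, against 4.55% of all tested transcripts. PKM had the most noncoding counts, 4307 over the 4 libraries, which is 2.28% of the counts under its name. For GAPDH, HK2 and PFKP that share was under 1%, with 20, 10 and 14 counts. It was also under 1% for ENO1, LDHA and PGK1, with 797, 723 and 187 counts. These transcripts come from the same genes as the coding ones, so their reads cannot be told apart from reads of coding isoforms or of unspliced RNA.

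Processed copies and antisense partners bear on what the counts mean. RefSeq lists 65 pseudogenes of GAPDH, of which 23 are in the lncRNA table with 1057 counts, against 144094 counts for the gene itself. LDHA has 6, of which 4 have 525 counts against 146365. How reads that match a gene and its copies were assigned is not given, so the levels of both genes are uncertain by an unknown amount. The kits named in the protocols keep strand, but the strand setting of the counting is not given, so reads where a gene and an antisense transcript overlap cannot be told apart with certainty. AC006064.4 overlaps the RefSeq span of GAPDH by 578 bases and had 56 and 41 counts in control libraries and 54 and 52 in knockdown. AC093512.1 overlaps ALDOA by 521 bases and had 0, 3, 0 and 5 counts in that order. The antisense transcripts listed for SLC2A1, HK2 and ENO1 lie outside the RefSeq spans of those genes. ENST00000416689 of SLC2A1-AS1 had 28 and 11 counts in control libraries and 1 and 15 in knockdown. Its groups overlapped, and its log2 fold change was −1.46 ± 0.79 (SE) with an unadjusted edgeR p of 0.0737.

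Peaks of m1A were listed by the authors for each sample, with a fold enrichment of immunoprecipitated over input reads and a score. In the mRNA lists, 3 of the 10 genes had a peak: SLC2A1, PFKP and HK2. Among all tested gene symbols, 51.3% had a peak in at least 1 list, and 58.2% of those with a mean of at least 50 CPM did. The 7 genes without a listed peak were ALDOA, GAPDH, PGK1, ENO1, PKM, LDHA and CA9. The genes held 5 and 2 peaks in the control lists and 5 and 3 in the knockdown lists, out of 6701, 4319, 5793 and 3686 peaks. The mean was 3.5 ± 2.12 in control and 4 ± 1.41 in knockdown (SD), and the exact two-sided permutation test gave p = 1, where the smallest p it can give is 0.333.

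The peak at the start of SLC2A1 was listed in all 4 samples, as were 11.0% of all 11976 regions. Its folds were 8.83 and 6.51 in control and 8.55 and 5.02 in knockdown, and its scores 805.27, 93.61, 355.83 and 114.43. The control and knockdown folds overlapped, and within each group replicate 2 had the lower fold. In each list it began at the same base, 42958634, which is 234 bases into the gene, and it crossed the RefSeq start at 42958868. It ended 130 bases upstream of that start in control 1 and knockdown 1, 115 in knockdown 2 and 308 in control 2. Within the lists these folds ranked at the 69.6th, 46.3rd, 68.4th and 28.5th percentile, so the peak was not among the strongest of any sample. The lists give no strand, and in control 2 the peak also overlapped SLC2A1-AS1 by 74 and 129 bases of its transcripts on the opposite strand.

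**Figure D3:**
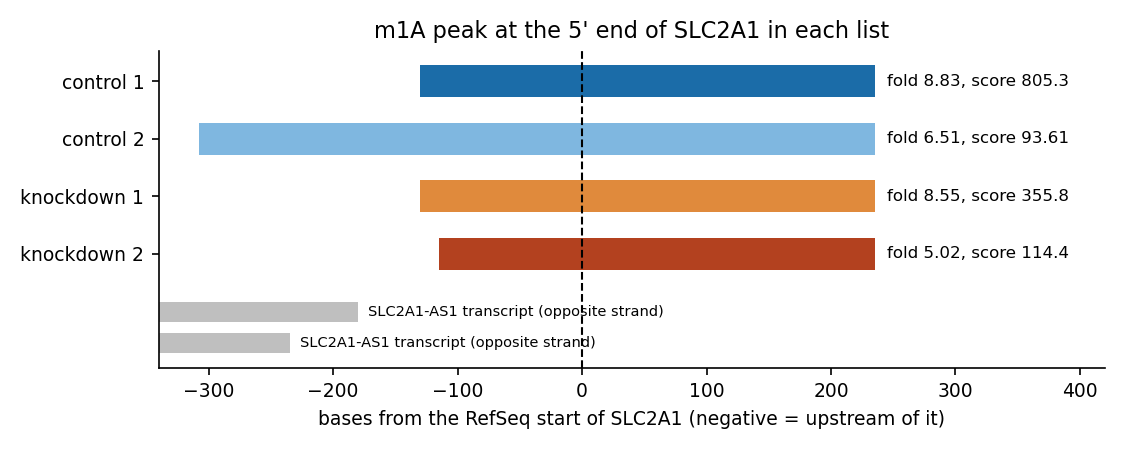
Extent of the m1A peak at the 5′ end of SLC2A1 in each list, in bases from the RefSeq start (dashed line), with the authors' fold and score beside each bar; grey bars are the SLC2A1-AS1 transcripts on the opposite strand. All 4 peaks share the end 234 bases inside the gene, and the peak of control 2 reaches farthest upstream, to 308 bases.

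The remaining 8 regions of these genes were each in 1 or 2 lists. Of all 9 regions, 5 were listed in 1 sample, as were 61.1% of all regions in the lists. SLC2A1 had another region, chr1:42929593-42929780, in knockdown 1 with a fold of 4.13. It lay 29088 to 29275 bases downstream of the RefSeq start of the gene. HK2 had 1 region, chr2:74885494-74885589, in both controls and in neither knockdown list, an order shown by 5.83% of all regions. Its folds were 5.73 in control 2 and 2.39 in control 1, and its scores, 62.67 and 55, stood just above 50, the lowest the lists contain. A peak that misses that limit is not listed, so its absence from the knockdown lists does not measure a level, and depth of the immunoprecipitated libraries was not analysed here.

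PFKP had 6 regions, and its strongest fold, 11.3, was in control 1 at chr10:3068627-3068742, which begins at a RefSeq transcript start. That peak was in no other list. The region at the RefSeq start of the gene, chr10:3067520-3067707, was listed in control 1 and knockdown 1, with folds of 5.75 and 5.04. The region chr10:3112222-3112286 was listed in control 1 and knockdown 2, with folds of 2.2 and 2.38 that are close to the lists' lowest fold of 2. The other 3 PFKP regions were in knockdown lists alone, with folds of 2.72, 3.28 and 3.48 and scores of 75.24, 76.71 and 69.98. No PFKP region was in control 2. The lncRNA list of control 1 added a peak on a PFKP transcript at chr10:3069233-3069389 with a fold of 5.79. Exon, intron and UTR positions of these peaks are not given here, because no exon annotation was used.

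**Figure D4:**
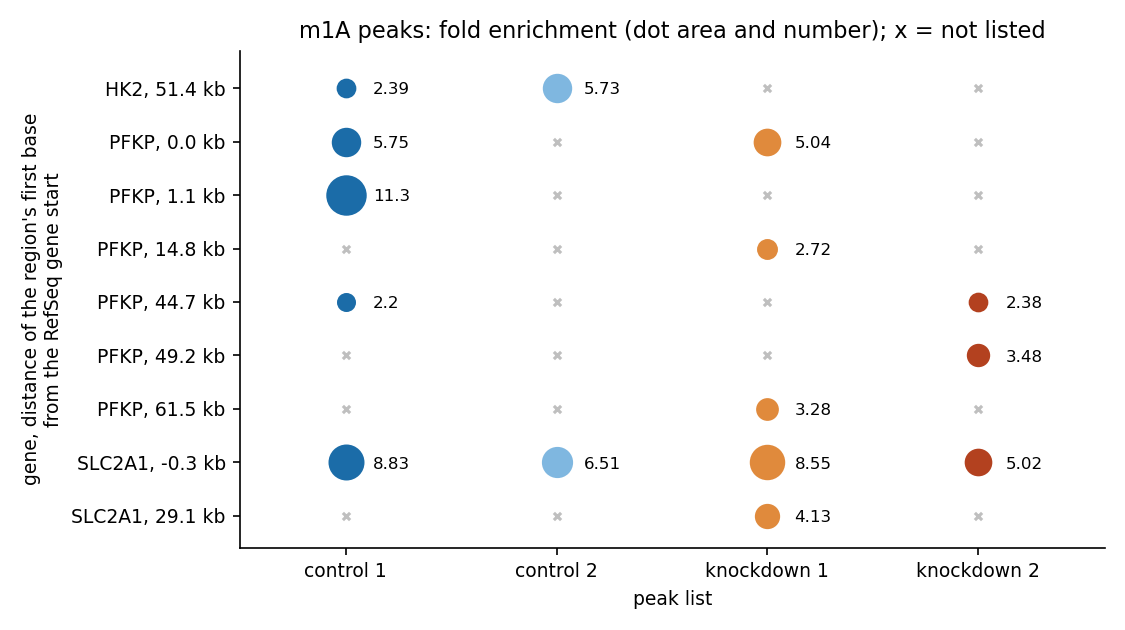
Fold enrichment of each m1A region of HK2, PFKP and SLC2A1 in each list (dot area and number; small crosses, not listed), with the distance of its first base from the RefSeq start of the gene in kilobases. The SLC2A1 start is the one region with a dot in all 4 columns, and PFKP has none in control 2.

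The rest of the pathway was described from 7 further lists of related genes, of which edgeR called no gene in either direction. Of the other glucose transporters, hexokinases and relatives of the 10 genes, 20 were tested, 8 with a positive and 12 with a negative log2 fold change, and a median of −0.02. HK1 measured 86.7 and 78.2 CPM in control libraries against 84.2 and 78.4 CPM in knockdown, and LDHB 377, 359, 386 and 319 CPM, both with overlapping groups. HKDC1, a weakly expressed hexokinase relative, measured 2.60 and 2.10 CPM in control libraries against 1.37 and 1.22 CPM in knockdown, with a log2 fold change of −0.85 ± 0.35 (SE), an unadjusted edgeR p of 0.038 and an adjusted p of 1.00. Of the glycolytic steps that none of the 10 genes covers, 5 were tested and 4 were negative. TPI1, the triose phosphate isomerase, measured 318 and 308 CPM in control libraries against 321 and 270 CPM in knockdown. PGAM1, the phosphoglycerate mutase, measured 235 and 187 CPM in control libraries against 181 and 196 CPM in knockdown.

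Among 12 tested regulators of glycolytic flux, 6 were positive and 6 negative. PFKFB3, which makes the activator fructose 2,6-bisphosphate, measured 118 and 124 CPM in control libraries against 142 and 134 CPM in knockdown, with a log2 fold change of 0.18 ± 0.07 (SE) and an unadjusted edgeR p of 0.039. TXNIP, a brake on glucose uptake, measured 93.3 and 82.3 CPM in control libraries against 75.7 and 72.3 CPM in knockdown, with −0.25 ± 0.09 and a p of 0.0201. Without control 1 the value for TXNIP was −0.15. The groups did not overlap for PFKFB3 or TXNIP, but neither passed after adjustment over all genes (adjusted p 1.00, edgeR). PDP1, a pyruvate dehydrogenase phosphatase, measured 216 and 190 CPM in control libraries against 204 and 228 CPM in knockdown. Of 13 tested genes for the fate of pyruvate and lactate transport, 9 were negative. The lactate transporter SLC16A1 measured 294 and 297 CPM in control libraries against 306 and 265 CPM in knockdown. Its chaperone BSG measured 443, 456, 450 and 418 CPM in the same order. PCK2, the mitochondrial enzyme that makes phosphoenolpyruvate, measured 45.0 and 46.1 CPM in control libraries against 35.7 and 37.3 CPM in knockdown, with a log2 fold change of −0.32 ± 0.09 (SE), an unadjusted edgeR p of 0.00682 and an adjusted p of 1.00.

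The side branches of glucose use held 18 tested genes, 14 of them negative, with a median of −0.09. PYGL, the liver glycogen phosphorylase, measured 331 and 282 CPM in control libraries against 298 and 243 CPM in knockdown, with overlapping groups. GPD2, which passes glycolytic reducing equivalents to mitochondria, was higher in both knockdown libraries, at 283 and 285 CPM against 244 and 239 CPM. Its log2 fold change was 0.23 ± 0.07 (SE), with an unadjusted edgeR p of 0.00884 and an adjusted p of 1.00.

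The oxygen-sensing machinery held 13 tested genes, 6 positive and 7 negative. HIF1A, the regulated subunit of the hypoxia-inducible factor, measured 767 and 703 CPM in control libraries against 795 and 795 CPM in knockdown, with a log2 fold change of 0.11 ± 0.07 (SE) and an unadjusted edgeR p of 0.157. It was 0.05 without control 2 and 0.18 without control 1. VHL, which marks HIF1A protein for degradation, measured 362 and 347 CPM in control libraries against 354 and 369 CPM in knockdown. EGLN1, the prolyl hydroxylase that senses oxygen, measured 65.0 and 67.7 CPM in control libraries against 75.3 and 78.5 CPM in knockdown, with 0.21 ± 0.08 and a p of 0.0241, which became 1.00 after adjustment by edgeR.

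Another 21 hypoxia-induced genes were tested, of which 12 were positive and 9 negative, with a median of 0.00426. Of these, 2 had an unadjusted edgeR p under 0.05, and both had a negative log2 fold change. DDIT4, a stress-induced inhibitor of mTORC1, measured 146 and 113 CPM in control libraries against 94.3 and 82.5 CPM in knockdown. Its log2 fold change was −0.55 ± 0.12 (SE), with an adjusted edgeR p of 0.928. By DESeq2 its adjusted p was 0.0104, and by edgeR with the replicate number as a block it was 0.0228. It did not pass by limma-voom (adjusted p 0.9997) or by edgeR without a filter (0.0789). Nor did it pass by edgeR with total counts (0.839), DESeq2 size factors (0.927) or a mean count of at least 10 (0.946). With 1 library left out its log2 fold change ran from −0.73 without control 2 to −0.35 without control 1. STC2, a secreted glycoprotein, measured 99.4 and 82.0 CPM in control libraries against 71.9 and 63.2 CPM in knockdown. Its log2 fold change was −0.42 ± 0.11 (SE), with an adjusted edgeR p of 1.00. The adjusted p was 0.187 by DESeq2 and 0.100 by edgeR with the block. Without knockdown 1 its log2 fold change was −0.52. Without control 1 its log2 fold change was −0.28. ERO1A, an oxidase of the endoplasmic reticulum, measured 228 and 203 CPM in control libraries against 236 and 225 CPM in knockdown.

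**Figure D5:**
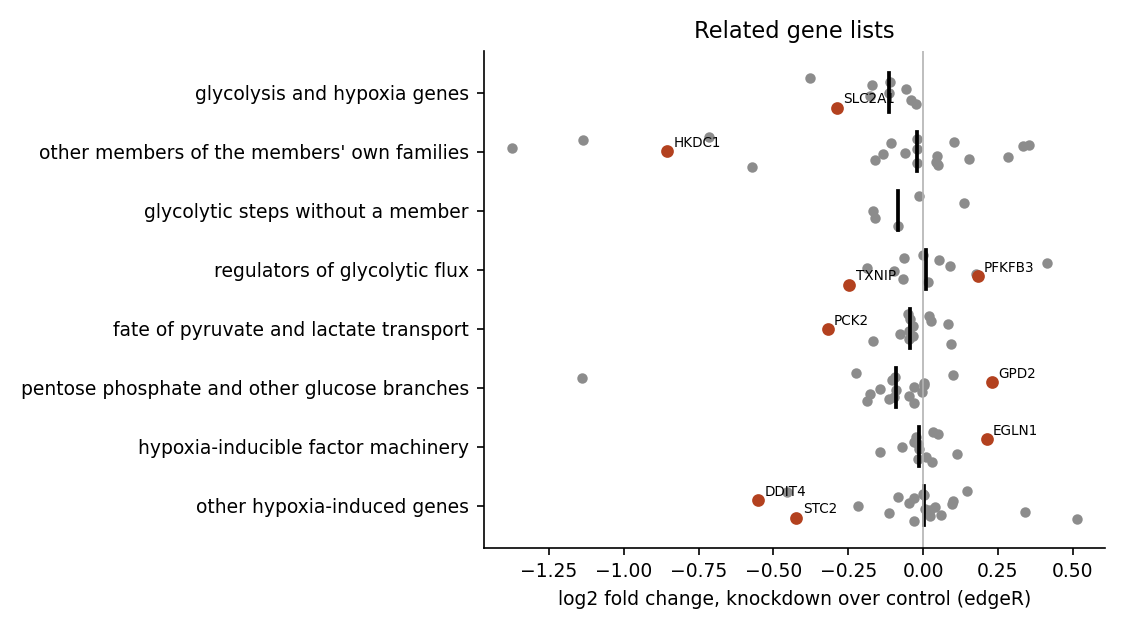
Log2 fold change of knockdown over control (edgeR) for each tested gene of the 10 names (first ALDOA row) and of 7 related lists; black ticks are list medians, and red points have an unadjusted p under 0.05 and are named. No point passed after adjustment over all 13362 genes, and the median of the 9 glycolysis genes shown is −0.11.

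Of the 70 m1A regions of genes in these related lists, 4 were in all 4 lists (5.71%), against 11.0% of all regions. They were on VHL, STC2, DLD and ELOC, named here after their values were seen. HK1 and PFKL also had a peak in every list, through several regions that were each in fewer lists. At VHL the region chr3:10141634-10142187 had folds of 25.98 to 39.08, and at STC2 the region chr5:173328043-173328881 had folds of 25 to 38.46. Those values are above all folds of the SLC2A1 start, of which the highest was 8.83. The region of DLD, a subunit of pyruvate dehydrogenase, had folds of 7.86 to 30.62, and that of ELOC, a partner of VHL, 3.72 to 23.48.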

How the data were processed

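The members and the related lists were chosen with earlier results of these data known. The deposited count tables hold, per the file headers, unnormalized counts of reads in the 4 inputs, by gene for mRNA and by transcript for lncRNA; their 8 normalized columns stayed unused. The deposited peak lists give for each sample a fold enrichment (a linear ratio) and a score, which were used as given and not tested. HISAT2 2.0.4, HTSeq 0.9.1, STAR, edgeR and build hg38 are named, with no roles, per the submitters' processing notes. TRIzol extraction, removal of ribosomal RNA and a commercial m1A immunoprecipitation kit are named per the labels' protocols.

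Each whole table of counts was tested with edgeR 4.0.16 under R 4.3.3: genes were filtered by filterByExpr at a minimum count of 10, scaled by TMM, and compared with the two-sided quasi-likelihood test without a replicate block. P-values were adjusted over all tested genes (Benjamini-Hochberg, 0.05). SE is that implied by the F statistic. The fit was tested on simulated counts whose changes were larger than those of the 10 tested rows. That test therefore does not show whether changes as small as theirs would be called. Alternatives included DESeq2 1.42.0, limma-voom (limma 3.58.1), other scalings and filters, a block, and leaving out each library. Totals were 30046283 to 42177927 for mRNA and 1727826 to 2304288 for lncRNA counts. Peaks were merged into regions where they overlapped by at least 1 base. All 10 genes were named, and of the related lists, of whose 132 genes (the 10 included) 127 were in the table, those that passed, those with an unadjusted p under 0.05 and the 2 with the highest mean CPM. Positions of genes came from RefSeq on GRCh38.p14. Another gene of the related lists is not reported here.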

Additional observations from a re-analysis of the deposited data

How the results depend on the processing

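None of the 10 tested rows was called, nor any of the noncoding transcripts under the same names, in any of the 11 alternative fits. Over all mRNA genes 5 were called, against 24 by DESeq2, 3 by limma-voom, 14 without a filter, and 11 to 135 when 1 library was left out, with 135 without knockdown 1. Over lncRNA transcripts 5 were called, against 24 without a filter and 18 to 32 with 1 library left out. The labels give no pairing of replicates, so the replicate numbers were not taken as pairs. Over all tested features, same-numbered samples deviated together by a correlation of 0.0996 for mRNA and 0.021 for lncRNA. Among the 10 rows, however, replicate 1 was above replicate 2 in both groups in all but SLC2A1 and the first ALDOA row. With the number as a block, 15 genes, 22 transcripts and 0 of the 10 rows were called. The cause of these shifts was not tested.

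Leaving out 1 library turned the sign of small log2 fold changes. The ranges over the 4 fits were −0.281 to 0.0418 for ENO1, −0.157 to 0.0428 for HK2, −0.318 to 0.0628 for LDHA, −0.105 to 0.0191 for PGK1, −0.115 to 0.0639 for PKM, −0.104 to 0.000171 for BSG, −0.0944 to 0.0546 for HK1, −0.206 to 0.0696 for LDHB, −0.00251 to 0.182 for PDP1, −0.315 to 0.0115 for PGAM1, −0.155 to 0.0519 for SLC16A1, −0.214 to 0.0363 for TPI1 and −0.00203 to 0.0606 for VHL. Knockdown lists held on average 0.5 more peaks of the 10 genes than control lists, but 0.5 fewer (−0.5) at a score of at least 100 or a fold of at least 4, and −1 to 2 with 1 list left out. Regions numbered 9, and 5 at either limit. Regions in more than 1 list numbered 4, against 1 at the score limit, 2 at the fold limit, and 1 to 3 with 1 list left out.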
